A study of Rattus norvegicus with 10 samples.

Results

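The genes described are the collagens and 15 further genes of the extracellular matrix and of the fibroblasts that make it, measured in chemically induced mammary tumours of rats whose dams had eaten different diets. Members were every gene with a symbol of the collagen form (Col, a number, a and a number) and Fn1, Fbn1, Tnc, Postn, Sparc, Dcn, Lum, Bgn, Lox, Mfap5, Thy1, Fap, Pdgfra, Pdgfrb and Pepd. A probe had a symbol only where its transcript identifier matched RefSeq, which held for 17502 of the 41012 probes of the array. Of these, 43 probes matched 31 of the member genes, 17 of them collagens. Collagens whose probes had no such match are not covered. A probe was kept if at least 5 of the 10 arrays marked it as well above background, which left 40 of the 43 probes and 29 genes, 16 of them collagens, among 16764 genes, among which transcripts without a name are counted. The collagen gene Col23a1 and Thy1, a surface antigen of fibroblasts and other cells, had no kept probe. Lox had no probe matched in this way and was not analysed here.

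All animals were female Sprague-Dawley rats. Every one received a single injection of 50 mg/kg of the carcinogen N-methyl-N-nitrosourea (MNU) at 3 weeks of age, and the age given with the tumours is 110 days. In the WD group (5 tumours, WD1 to WD5) the dam ate a Western-style diet, rich in fat and poor in fibre and oligoelements. It was fed on gestational days 12 to 20, and again on postnatal days 1 to 21. In the CD group (5 tumours, CD1 to CD5) the dam ate control diet throughout, and the daughters of both groups ate control diet after weaning. The tumours were of a tubular or papillary form, and each was read on 1 array with 1 dye. The labels do not tie tumours to dams or litters, so the p-values measure only the spread between these tumours. In whole tumours, fewer cells of a type and less RNA per cell cannot be told apart.

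The extracellular matrix is the protein scaffold between cells. In mammary tumours most of it is made by stromal fibroblasts. Fibrillar collagens form the fibres of the stroma, other collagens bind to the surface of those fibres, and network-forming collagens build the basement membrane under the epithelium. Glycoproteins such as fibronectin and fibrillin and small proteoglycans such as decorin organise the fibres, and the signalling receptors Pdgfra and Pdgfrb mark the cells that lay them down. Pepd, prolidase, is a cytosolic enzyme that splits the dipeptides with a carboxy-terminal proline left when collagen is broken down.

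The promoters of 3 members are shown because these genes stand for the 3 patterns described further on. Col1a2 varied with many of the stromal members over the tumours, Col5a3 was the 1 member whose groups did not overlap, and Pepd had the smallest p. They run from 250 bases before to 50 bases after the start of the gene, 5′ to 3′, in the RefSeq annotation of GRCr8, which held a promoter for 20 of the 29 kept members. Capitals mark matches on either strand to the CCAAT box (CCAAT), the GC box (GGGCGG) and the TATA box (TATAAA), and no match overlapped another in these promoters. The regions are chr4:33518307-33518606 on the plus strand (Col1a2), chr8:27625899-27626198 on the minus strand (Col5a3) and chr1:96673374-96673673 on the plus strand (Pepd).
Col1a2: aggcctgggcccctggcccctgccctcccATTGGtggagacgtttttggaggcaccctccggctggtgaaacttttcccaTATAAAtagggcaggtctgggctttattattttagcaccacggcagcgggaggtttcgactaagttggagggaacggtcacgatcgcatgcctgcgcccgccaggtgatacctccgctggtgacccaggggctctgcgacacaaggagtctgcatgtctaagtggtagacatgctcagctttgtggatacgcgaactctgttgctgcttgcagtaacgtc
Col5a3: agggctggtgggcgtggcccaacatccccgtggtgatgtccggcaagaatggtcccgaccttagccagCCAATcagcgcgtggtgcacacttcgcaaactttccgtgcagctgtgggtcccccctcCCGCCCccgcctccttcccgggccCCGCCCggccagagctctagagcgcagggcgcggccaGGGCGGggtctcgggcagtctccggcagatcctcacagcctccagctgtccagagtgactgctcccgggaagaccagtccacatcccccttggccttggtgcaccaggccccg
Pepd: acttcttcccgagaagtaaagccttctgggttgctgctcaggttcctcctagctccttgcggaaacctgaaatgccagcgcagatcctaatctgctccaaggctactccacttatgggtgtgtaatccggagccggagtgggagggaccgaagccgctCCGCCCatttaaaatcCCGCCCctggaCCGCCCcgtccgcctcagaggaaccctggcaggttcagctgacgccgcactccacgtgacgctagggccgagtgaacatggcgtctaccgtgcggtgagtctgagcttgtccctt
The Col1a2 window held a CCAAT box on the opposite strand at position -221 relative to the start of the gene, and a TATA box at position -170. The Col5a3 window held a CCAAT box and 3 GC boxes, and the Pepd window held 3 GC boxes between positions -92 and -65. Over the 20 member promoters, 9 (45.0%) held a GC box, 6 (30.0%) a CCAAT box and 3 (15%) a TATA box. Of all 33469 promoters of this length the shares were 33.1%, 37.5% and 14.2%. A match of letters is not evidence that a factor binds there.

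Levels are log2 processed signals minus the 75th percentile of the array, so 0 is that percentile. The 75th percentile, called array brightness below, lay between 72.8 and 170 intensity units on the WD arrays and between 85.0 and 226 on the CD arrays. CD1, CD2, CD4 and CD5 (188, 204, 190 and 226) were brighter than every WD array, so brightness went partly with group. Markers of mammary epithelium were measured in all tumours: the mean of 9 luminal genes lay between 3.85 and 4.32 in WD and between 4.15 and 4.71 in CD. The arrays lay on 3 slides. Slide 1 held WD1, WD2 and CD2, slide 2 held WD3, WD4, CD3 and CD5, and slide 3 held WD5, CD1 and CD4.

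The series asks whether the diet of the dam alters gene expression in the tumours of the daughters. No member passed the test for a difference between the groups, in the linear model of limma with Benjamini-Hochberg adjustment over all 16764 genes (adjusted p 0.182 to 0.983), where 0% of all genes were called. At an unadjusted p under 0.05 there were 8 members. Of these 4 (Col5a3, Fbn1, Fn1 and Tnc) had a higher mean in WD (13.8% of the 29, where 7.78% of all genes did). The other 4 (Pepd, Col9a1, Col7a1 and Col2a1) had a lower mean (13.8%, where 7.71% of all genes did). With array brightness as a covariate in limma, Col5a3 (unadjusted p 0.00097) and Pepd (0.029) stayed under 0.05. In that fit the unadjusted p was 0.154 for Fn1, 0.064 for Fbn1, 0.085 for Tnc, 0.216 for Col9a1, 0.481 for Col7a1 and 0.269 for Col2a1. Of all genes, 2.76% with a higher and 2.95% with a lower mean in WD were under 0.05 there. Of the 29 members 24 (82.8%) had a higher mean in WD, against 51.4% of all genes, and the median difference was 0.35 (log2) against 0.01. The scaling moved the split of the members and that of all genes. With arrays centred on their median, which moved the median of all genes to -0.24, 19 members (65.5%) had a higher mean, against 25.2% of all genes, and their median was 0.10. In the deposited series matrix 20 members (69.0%) had a higher mean, against 47.2% of all genes, and their median was 0.21. The members were chosen with earlier results of these arrays known, so these counts describe the list and are no test of it.

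Tumours of one group varied more in most members than in the median gene. The pooled SD within the groups had a median of 0.66 over the members, against 0.34 over all genes, and 26 of the 29 members were above the median of all genes. The mean level of the 29 members was 2.29, 1.36, 2.23, 2.08 and 2.38 in WD1 to WD5 and 1.26, 2.07, 1.89, 1.42 and 1.95 in CD1 to CD5. WD2, CD1 and CD4 were thus the lowest, and the groups overlapped. WD2, CD1 and CD4 had the lowest level for 6, 5 and 8 of the 29 members, and WD3 the highest for 9. WD5 lay above the median of the gene for 24 members and CD1 for 5.

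**Figure D1:**
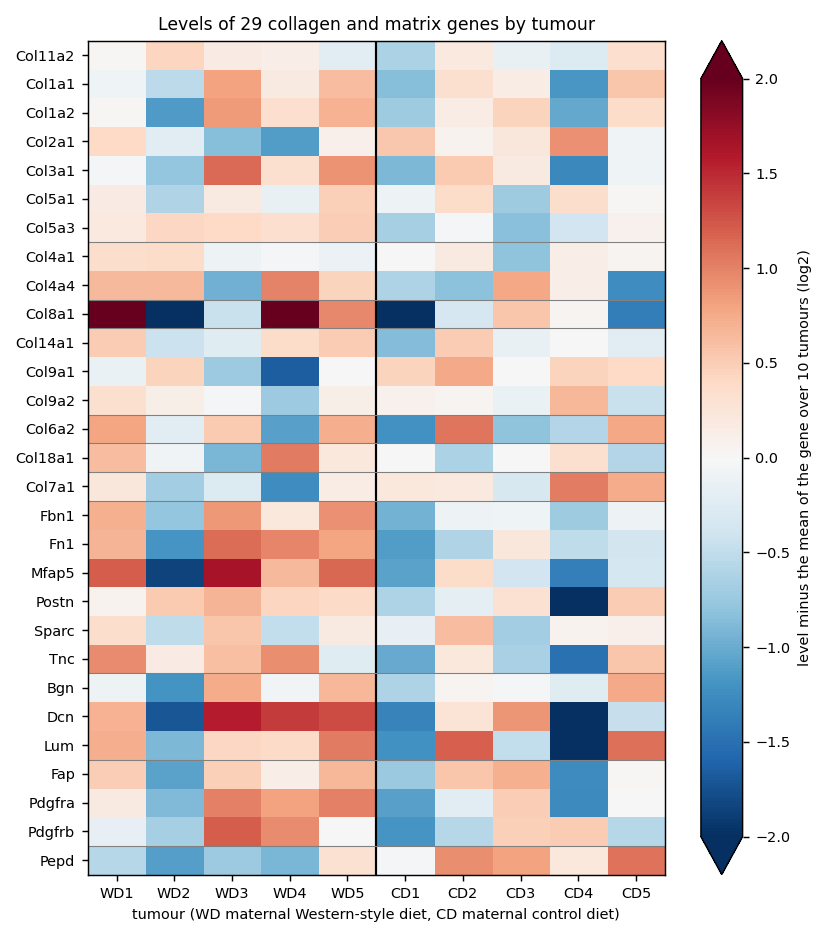
Level of each of the 29 kept members in each tumour, as the log2 difference from the mean of the gene over the 10 tumours (red above, blue below, colours end at 2 units either way). Rows are grouped by role, with grey lines between groups, and the black line parts WD1 to WD5 from CD1 to CD5. WD2, CD1 and CD4 are blue over most fibrillar collagens, proteoglycans and fibroblast genes.

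The slides gave different answers. The median difference of the members was -0.44 on slide 1 (2 WD, 1 CD tumour; 13 members with a higher and 16 with a lower mean in WD), 0.25 on slide 2 (2 and 2; 21 and 8) and 1.02 on slide 3 (1 and 2; 24 and 5). The 3 tumours of lowest mean are WD2 on slide 1 and CD1 and CD4 on slide 3, and each slide value rests on 1 or 2 tumours of a group. With slide as a block the median difference was 0.35 and the lowest adjusted p of a member 0.165. On all 3 slides 10 members had a higher mean in WD (Col11a2, Col5a3, Col18a1, Col4a4, Col8a1, Fbn1, Fn1, Postn, Tnc and Pdgfrb) and 2 a lower one (Col7a1 and Col9a1). The other 17 changed sign between slides.

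Among the fibrillar collagens, the fibre-forming chains of types I and III differed widely between tumours, and their groups overlapped. Col1a1, a chain of type I collagen, the main fibre protein of connective tissue, had levels of 4.27, 3.84, 5.17, 4.55 and 4.97 in WD1 to WD5 and 3.51, 4.68, 4.50, 3.20 and 4.91 in CD1 to CD5 (probe A_44_P238421). The groups overlapped over most of their range, with CD4 and CD1 lowest and WD3 highest. The difference was 0.40 ± 0.37 (SE), with an adjusted p of 0.618. Col1a2, the partner chain of type I collagen, had levels of 5.80, 4.64, 6.63, 6.10 and 6.46 in WD1 to WD5 and 5.06, 5.93, 6.22, 4.75 and 6.14 in CD1 to CD5 (A_43_P12783). WD2, at the bottom of the WD values, lay below every CD tumour. The difference was 0.31 ± 0.40 (SE), adjusted p 0.739, and a second probe of Col1a2 differed by -0.03. Col3a1, the chain of type III collagen, which forms thin fibres beside type I, had levels of 4.58, 3.84, 5.74, 4.92 and 5.49 in WD1 to WD5 and 3.70, 5.13, 4.79, 3.31 and 4.52 in CD1 to CD5 (A_44_P146518). WD3 and WD5 lay above every CD tumour and CD1 and CD4 below every WD tumour. The difference was 0.63 ± 0.42 (SE), which is 1.54-fold, with an adjusted p of 0.488. Within slides 1, 2 and 3 the differences were -0.63, 0.15 and 1.62 for Col1a1 and -0.92, 0.68 and 1.99 for Col3a1.

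Col5a3, a chain of type V collagen, which takes part in starting fibres, was the member with the least overlap. Its levels were 0.33, 0.55, 0.52, 0.46 and 0.62 in WD1 to WD5 and -0.54, 0.08, -0.70, -0.25 and 0.21 in CD1 to CD5 (A_44_P197290). Every WD tumour lay above every CD tumour, and the WD values lay close together. Groups without overlap were found for 1 of the 29 members (3.45%) and with the higher values in WD, against 3.65% of all genes (1.34% with higher and 2.31% with lower values in WD). The means were 0.50 ± 0.11 (SD, n = 5) against -0.24 ± 0.39 (n = 5), a difference of 0.73 ± 0.19 (SE) or 1.66-fold, with a 95% confidence interval of 0.32 to 1.15, an unadjusted p of 0.00238 and an adjusted p of 0.182 in limma. Within slides 1, 2 and 3 the difference was 0.35, 0.74 and 1.02, and without each tumour in turn it lay between 0.62 and 0.85. It was smaller with normexp background correction (0.39, adjusted p 0.999) and in the deposited series matrix (0.33, adjusted p 0.280).

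Col5a1, the more widely expressed chain of type V collagen, had levels of 0.12, -0.64, 0.13, -0.19 and 0.44 in WD1 to WD5 and -0.14, 0.33, -0.75, 0.32 and -0.01 in CD1 to CD5 (A_44_P196079). The groups lay over each other, with a difference of 0.02 ± 0.25 (SE), an interval of -0.53 to 0.58 and an adjusted p of 0.973, and the sign turned with arrays centred on their median and in the deposited series matrix. Col11a2, a chain of type XI collagen of cartilage, ranged from -0.54 to 0.10 in WD and from -0.97 to 0.01 in CD, a difference of 0.21 ± 0.20 (SE) (adjusted p 0.632) whose sign also turned under those settings and with normexp.

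Col2a1, the main collagen of cartilage, was among the members with a lower mean in WD. The probe A_43_P15252 read 4.98, 4.36, 3.73, 3.47 and 4.68 in WD1 to WD5 and 5.12, 4.64, 4.80, 5.49 and 4.51 in CD1 to CD5. WD2, WD3 and WD4 lay below every CD tumour, and WD1 and WD5 lay among them. The difference was -0.67 ± 0.30 (SE), unadjusted p 0.0474 and adjusted p 0.317. A second probe of Col2a1 (A_44_P442938), near background, differed by 0.25 in the other direction and did not follow the first over the tumours (r = -0.08), so the reading of this gene is uncertain.

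Of the 3 kept collagens of basement membranes 0 passed the test (adjusted p 0.445 to 0.695). Col4a1, a chain of the type IV network under every epithelium and vessel, had levels of 5.82, 5.85, 5.37, 5.44 and 5.36 in WD1 to WD5 and 5.48, 5.65, 4.67, 5.60 and 5.52 in CD1 to CD5 (A_44_P1021644). CD3 was the lowest and the other 9 tumours lay between 5.36 and 5.85. The difference was 0.18 ± 0.21 (SE) (adjusted p 0.695), and its sign turned with arrays centred on their median. Col4a4, a type IV chain of specialised membranes such as that of the kidney glomerulus, had levels of -2.08, -2.07, -3.69, -1.74 and -2.28 in WD1 to WD5 and -3.34, -3.55, -1.95, -2.59 and -3.97 in CD1 to CD5 (A_42_P806395). It was well above background on 3 WD and 2 CD arrays, so the size of its difference, 0.71 ± 0.43 (SE) (adjusted p 0.445), is uncertain. Col18a1, a basement membrane collagen whose end fragment is endostatin, had levels of 5.67, 4.99, 4.14, 6.10 and 5.27 in WD1 to WD5 and 5.07, 4.43, 5.06, 5.39 and 4.48 in CD1 to CD5 (A_44_P1004323). WD4 was the highest and WD3 the lowest of all 10 tumours, so the CD values lay inside the WD range. The difference was 0.35 ± 0.34 (SE), adjusted p 0.639.

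Col7a1, which builds the anchoring fibrils that tie a basement membrane to the stroma, had levels of 2.10, 1.19, 1.60, 0.64 and 2.02 in WD1 to WD5 and 2.10, 2.08, 1.55, 2.90 and 2.62 in CD1 to CD5 (A_44_P295563). All 5 WD tumours lay below the CD mean, WD2 and WD4 below every CD tumour. The means were 1.51 ± 0.61 (SD, n = 5) against 2.25 ± 0.52 (n = 5), which is a 1.67-fold difference (-0.74 ± 0.32 (SE) in log2 units, unadjusted p 0.0415, adjusted p 0.301). Within slides 1, 2 and 3 it was -0.44, -0.97 and -0.47, and with array brightness as a covariate -0.26 (unadjusted p 0.481).

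The collagens that sit on fibres differed among themselves. Col14a1, a fibril-associated collagen of dense connective tissue, had levels of 0.50, -0.44, -0.25, 0.36 and 0.50 in WD1 to WD5 and -0.88, 0.49, -0.16, -0.01 and -0.23 in CD1 to CD5 (A_44_P171271). CD1 was the lowest, the groups overlapped, and the difference was 0.29 ± 0.27 (SE) (adjusted p 0.624). Col9a1, a chain of the cartilage collagen IX, had levels of -1.23, -0.64, -1.81, -2.74 and -1.09 in WD1 to WD5 and -0.64, -0.33, -1.08, -0.65 and -0.69 in CD1 to CD5 (A_44_P311515). WD4 and WD3 were the lowest, WD1 and WD5 lay just below the lowest CD tumour, and WD2 lay among the CD tumours. The difference was -0.82 ± 0.34 (SE), unadjusted p 0.0331 and adjusted p 0.278, with 4 of 5 WD arrays well above background. Its partner chain Col9a2 ranged from 3.27 to 4.32 in WD and from 3.55 to 4.67 in CD, a difference of -0.09 ± 0.24 (SE) (adjusted p 0.883) that turned its sign when CD4 or WD4 was left out.

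The remaining collagens had wide spreads. Col8a1, of the short-chain network collagen VIII found around vessels, had levels of 3.14, -1.45, 0.29, 3.15 and 1.69 in WD1 to WD5 and -1.28, 0.40, 1.29, 0.79 and -0.64 in CD1 to CD5 (A_44_P140684). WD1 and WD4 were the highest and WD2 the lowest of all tumours, a range of 4.60 log2 units. The difference of 1.25 ± 0.85 (SE) had an interval of -0.61 to 3.11 and an adjusted p of 0.492. Col6a2, a chain of the beaded filaments of collagen VI, ranged from -2.77 to -0.90 in WD and from -2.89 to -0.62 in CD, a difference of 0.30 ± 0.50 (SE) (adjusted p 0.795) that turned its sign in the deposited series matrix. It was well above background on 3 of 5 arrays in each group. Below the filter, Col23a1, a transmembrane collagen, was well above background on 0 WD arrays and 1 CD array at its probe A_44_P456479 and on no array at its other probe, so no difference is given.

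**Figure D2:**
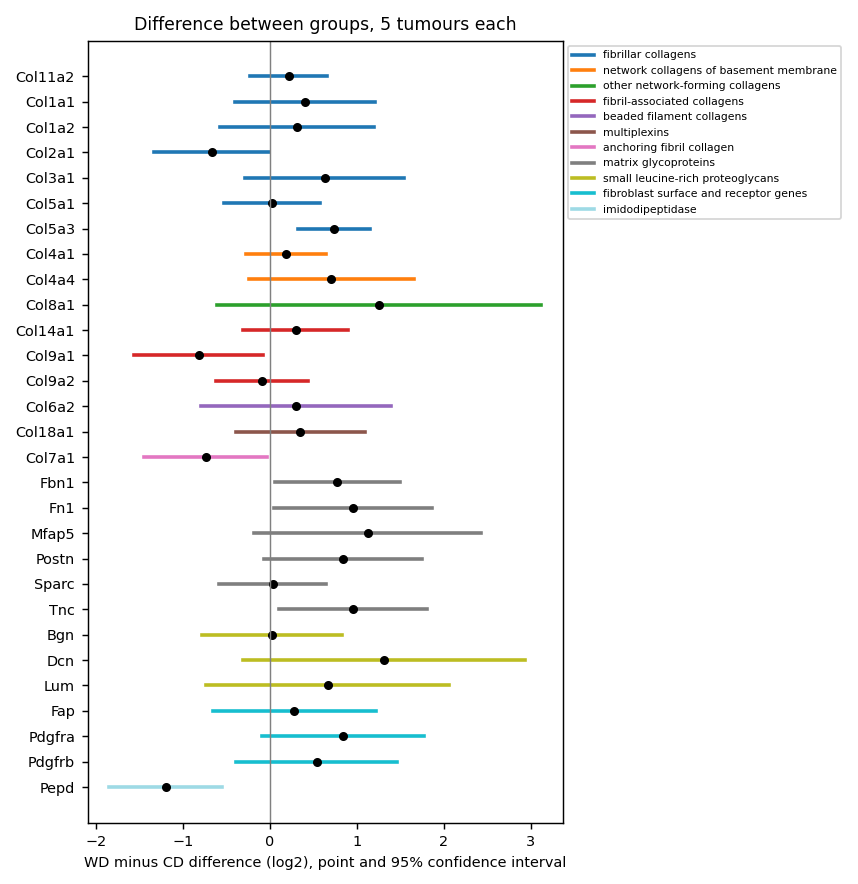
WD minus CD difference of each of the 29 kept members on the log2 scale, with the 95% confidence interval of the linear model, coloured by role. No interval is adjusted for the number of genes. The intervals of Col5a3, Fbn1, Fn1 and Tnc lie above 0, those of Pepd, Col9a1, Col7a1 and Col2a1 below 0, and the others include it.

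All 6 matrix glycoproteins had a mean difference above 0, from 0.03 (Sparc) to 1.12 (Mfap5), and 0 of 6 passed the adjusted test (lowest adjusted p 0.274). Fn1, fibronectin, a large glycoprotein that cells grip through integrins, had levels of 4.22, 2.34, 4.64, 4.51 and 4.31 in WD1 to WD5 and 2.41, 2.93, 3.76, 3.02 and 3.16 in CD1 to CD5 (A_44_P681660). WD1, WD3, WD4 and WD5 lay above every CD tumour, and WD2 lay below them all. The difference was 0.95 ± 0.41 (SE) (adjusted p 0.302), and without WD2 it was 1.37. Fbn1, fibrillin, the core of elastic microfibrils, had levels of 2.81, 1.32, 2.97, 2.30 and 3.02 in WD1 to WD5 and 1.15, 2.00, 2.01, 1.39 and 2.00 in CD1 to CD5 (A_44_P996061). Again WD2 was the only WD tumour among the CD values. The difference was 0.77 ± 0.33 (SE), adjusted p 0.29, and a second probe of Fbn1 (A_44_P179745) differed by -0.20, following the first over the tumours with r = 0.60. Mfap5, a glycoprotein bound to those microfibrils, had levels of 3.70, 0.63, 4.13, 3.13 and 3.63 in WD1 to WD5 and 1.41, 2.85, 2.10, 1.11 and 2.13 in CD1 to CD5 (A_43_P14973). It had the same tumour, WD2, below every other one, and its difference was 1.12 ± 0.59 (SE) (adjusted p 0.385).

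Tnc, tenascin, a glycoprotein of developing and remodelling tissue, had levels of 0.06, -0.72, -0.29, 0.05 and -1.13 in WD1 to WD5 and -1.89, -0.68, -1.53, -2.37 and -0.33 in CD1 to CD5 (A_43_P15638). CD4 and CD1 were the lowest, all 5 WD tumours lay above the CD mean, and CD2 and CD5 lay among the WD values. The difference was 0.96 ± 0.39 (SE), unadjusted p 0.0314 and adjusted p 0.274, and a second probe of Tnc differed by 0.99. Postn, periostin, which binds collagen and is made by activated fibroblasts, had levels of 2.69, 3.14, 3.30, 3.04 and 3.00 in WD1 to WD5 and 1.99, 2.44, 2.92, 0.52 and 3.13 in CD1 to CD5 (A_44_P525235). The WD tumours lay close together, while CD4 lay far below the rest. The means were 3.03 ± 0.22 (SD, n = 5) against 2.20 ± 1.04 (n = 5). The difference was 0.83 ± 0.41 (SE) (adjusted p 0.357), and without CD4 it was 0.41. Sparc, osteonectin, a collagen-binding glycoprotein, had levels of 6.48, 5.62, 6.69, 5.64 and 6.32 in WD1 to WD5 and 5.97, 6.76, 5.43, 6.20 and 6.23 in CD1 to CD5 (A_44_P451357). Its groups lay over each other, with a difference of 0.03 ± 0.28 (SE) and an interval of -0.58 to 0.65 (adjusted p 0.967), and its sign turned with arrays centred on their median.

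Of the 3 small leucine-rich proteoglycans, which coat and space collagen fibres, 0 passed the test (lowest adjusted p 0.410). Dcn, decorin, had levels of 3.49, 1.09, 4.37, 4.19 and 4.09 in WD1 to WD5 and 1.46, 3.07, 3.67, 0.16 and 2.33 in CD1 to CD5 (A_42_P647599). WD3, WD4 and WD5 lay above every CD tumour and WD2 near the bottom, with CD4 lowest of all, a span of 4.21 log2 units. The difference was 1.31 ± 0.74 (SE), 2.48-fold in the mean, with an interval of -0.31 to 2.93 and an adjusted p of 0.41. Lum, lumican, had levels of -0.64, -2.26, -0.95, -0.98 and -0.32 in WD1 to WD5 and -2.57, -0.17, -1.86, -3.62 and -0.26 in CD1 to CD5 (A_44_P458627). CD2 and CD5 were the highest and CD4 and CD1 the lowest, so the CD tumours enclosed the WD ones. The difference was 0.66 ± 0.64 (SE) (adjusted p 0.634), with 4 WD and 3 CD arrays well above background, and its sign turned in the deposited series matrix. Bgn, biglycan, had levels of 5.15, 4.05, 5.99, 5.19 and 5.91 in WD1 to WD5 and 4.63, 5.31, 5.23, 5.01 and 6.01 in CD1 to CD5 (A_43_P11812). The highest and the lowest tumour were CD5 and WD2, and the difference was 0.02 ± 0.37 (SE) with an interval of -0.78 to 0.83, whose sign turned with arrays centred on their median.

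**Figure D3:**
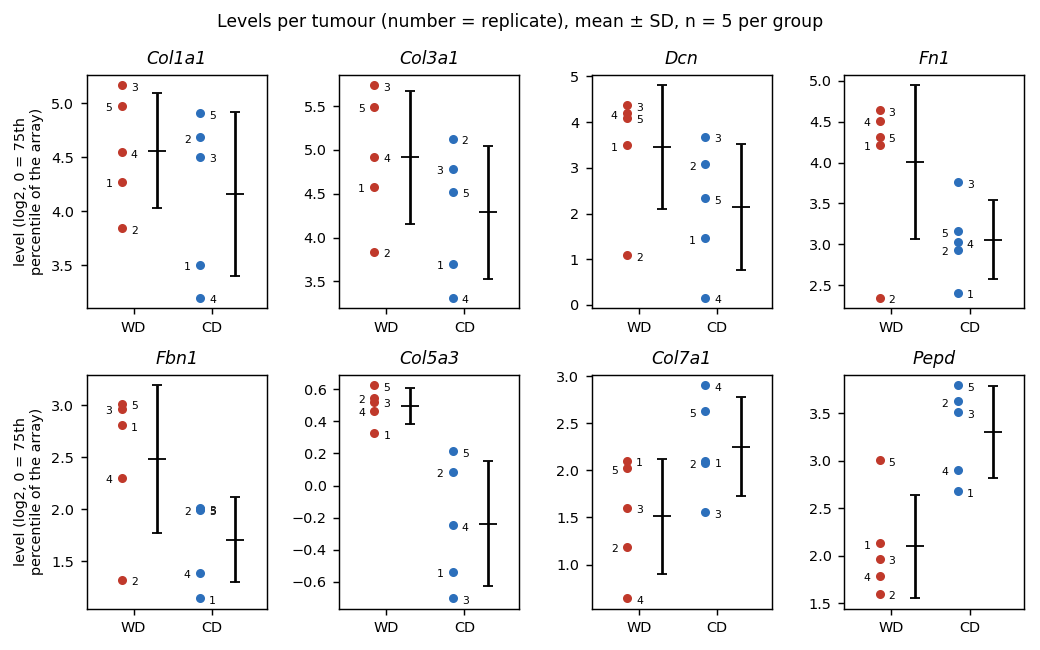
Levels of 8 members in each tumour (points, numbered by replicate) with the mean and SD of each group of 5, on a log2 scale where 0 is the 75th percentile of the array. For Fn1, Fbn1 and Dcn WD2 lies apart from the other 4 WD tumours. Col5a3 is the gene without overlap, and Pepd is lower in 4 of the WD tumours than in every CD tumour.

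All 3 kept fibroblast surface genes had a higher mean in WD, and 0 of 3 passed the test (adjusted p 0.364 to 0.778). Pdgfra, the PDGF receptor of interstitial fibroblasts, had levels of 0.94, -0.11, 1.78, 1.57 and 1.77 in WD1 to WD5 and -0.32, 0.55, 1.26, -0.50 and 0.76 in CD1 to CD5 (A_42_P457003). WD3, WD4 and WD5 lay above every CD tumour, and the difference was 0.84 ± 0.43 (SE) (adjusted p 0.364). Pdgfrb, the PDGF receptor of pericytes and fibroblasts, had levels of 0.00, -0.49, 1.38, 1.11 and 0.16 in WD1 to WD5 and -1.02, -0.40, 0.64, 0.68 and -0.41 in CD1 to CD5 (A_42_P546968). WD3 and WD4, both on slide 2, were the highest, and the difference was 0.54 ± 0.42 (SE) (adjusted p 0.557). With array brightness as a covariate the Pdgfrb difference was 0.07. Fap, a surface protease of activated fibroblasts, had levels of -1.64, -3.20, -1.66, -2.00 and -1.46 in WD1 to WD5 and -2.87, -1.57, -1.42, -3.38 and -2.11 in CD1 to CD5 (A_44_P470430). It was well above background on 3 arrays of each group, the groups overlapped, and the difference was 0.28 ± 0.43 (SE) (adjusted p 0.778). Thy1 read -2.24, -2.11, -2.32, -2.50 and -3.26 in WD1 to WD5 and -3.63, -1.92, -4.41, -2.71 and -2.20 in CD1 to CD5 (A_44_P475159) and was well above background on 1 WD and 3 CD arrays, too few to be kept.

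Pepd, the collagen dipeptide enzyme, had the smallest p of the members, with a lower mean in WD. Its levels were 2.13, 1.60, 1.97, 1.79 and 3.01 in WD1 to WD5 and 2.68, 3.62, 3.51, 2.91 and 3.79 in CD1 to CD5 (A_43_P20408). WD1 to WD4 lay below every CD tumour, and WD5 lay above CD1 and CD4. The means were 2.10 ± 0.54 (SD, n = 5) against 3.30 ± 0.48 (n = 5), a difference of -1.20 ± 0.29 (SE) or a 2.30-fold lower mean in WD, with an interval of -1.85 to -0.56, an unadjusted p of 0.00174 and an adjusted p of 0.182 in limma. Within slides 1, 2 and 3 the difference was -1.76, -1.77 and 0.21, so slide 3 had the other sign. Without each tumour in turn it lay between -1.43 and -1.08.

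Many of the stromal members varied together from tumour to tumour, and others did so weakly or had correlations below 0. The Pearson correlation of each member with the mean of the other 28, over 10 tumours and given as a description, was above 0.8 for 10 members: Fbn1 (0.95), Mfap5 (0.92), Fap (0.88), Pdgfra (0.87), Col3a1 (0.87), Col1a2 (0.86), Dcn (0.85), Col1a1 (0.83), Fn1 (0.82) and Lum (0.81). It was between 0.5 and 0.8 for Col14a1, Bgn, Tnc, Col6a2 and Col8a1. Lower values were those of Col5a3 (0.48), Postn (0.48), Sparc (0.44), Col5a1 (0.39), Pdgfrb (0.39), Col11a2 (0.26) and Pepd (0.01). For the 7 members below 0 the values were -0.50 (Col9a1), -0.46 (Col2a1), -0.32 (Col9a2), -0.19 (Col7a1), -0.18 (Col4a1), -0.07 (Col18a1) and -0.04 (Col4a4). These 7 are the 3 basement membrane collagens, the anchoring fibril collagen and 3 of the 4 kept collagens known from cartilage, while the other, Col11a2, had r = 0.26. The closest pairs were Dcn and Pdgfra (r = 0.96), Fbn1 and Mfap5 (0.95) and Col1a1 and Col3a1 (0.94), while Col9a1 and Fn1 had r = -0.78. Over all 406 pairs the median r was 0.25, and 139 pairs had an r below 0. Values of 1 array share its labelling and scaling, and its part in these correlations was not tested.

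The joint variation was weaker without the 3 tumours of lowest mean member level. Leaving them out narrows the range of that mean, which can lower r by itself, so what the variation rested on cannot be told. In the 7 tumours other than WD2, CD1 and CD4, a choice made after seeing the data, the r of the 10 members above ran from 0.12 (Col1a1) to 0.91 (Fbn1), with a median of 0.39. Fbn1 and Mfap5 (0.86) stayed high, and Col1a2 had 0.17. With each gene centred on the mean of its group, over all 10 tumours, the same 10 members had r from 0.77 to 0.96. Pepd had r = 0.01 over 10 tumours, 0.80 after centring within the groups and -0.63 over those 7 tumours.

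**Figure D4:**
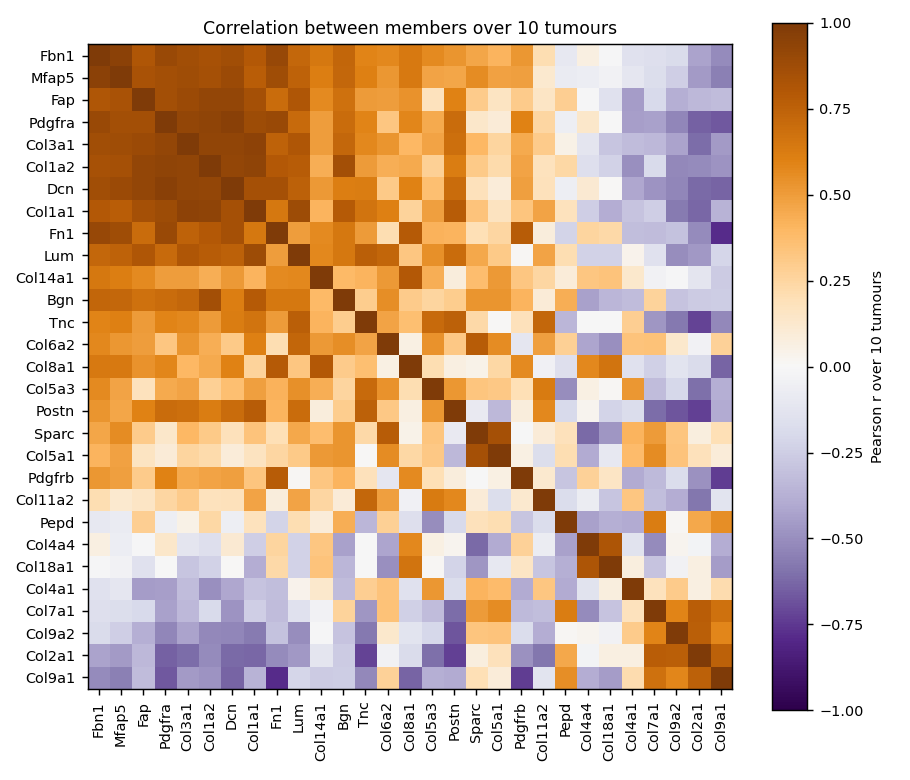
Pearson correlation between each pair of the 29 members over 10 tumours, in the order of the correlation of the member with the mean of the others, from Fbn1 to Col9a1. The block of high values at the upper left holds Fbn1, Mfap5, Fap, Pdgfra, Col3a1, Col1a2, Dcn, Col1a1, Fn1 and Lum. Col7a1, Col9a2, Col2a1 and Col9a1 at the lower right are correlated with each other and have values below 0 with every gene of that block.

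Other measures of the same tumours were set beside the mean level of the members. Macrophage and monocyte genes lay higher in the tumours with high matrix levels: the mean of 11 such genes ran from 1.90 to 3.84 in WD and from 2.35 to 3.05 in CD, and 11 of 11 had a higher mean in WD, against 51.4% of all genes. Of the 11, 0 passed and 2 had an unadjusted p under 0.05, where 7.78% of all genes did with a higher mean. The correlation of the macrophage mean with the mean of the members over 10 tumours was r = 0.84 (Spearman 0.83), 0.80 after centring within the groups, 0.89 without the 2 tumours of most extreme macrophage mean (WD2 and WD4) and 0.51 in the 7 tumours without WD2, CD1 and CD4. Of 13 cell cycle genes 12 had a lower mean in WD and 1 a higher one, where 51.4% of all genes had a higher mean. For these 13 the correlation with the mean of the members was -0.40 (Spearman -0.41) and -0.06 in those 7 tumours. It was -0.29 after centring within the groups and -0.49 without WD4 and CD5. For 3 endothelial genes (Cdh5 well above background on 2 WD and 3 CD arrays) it was 0.42 (Spearman 0.26). After centring within the groups it was 0.21, without WD3 and CD1 -0.09 and in those 7 tumours -0.0063. For 9 luminal genes it was -0.36 (Spearman -0.36) and -0.01 after centring, and for 6 basal genes -0.51 (Spearman -0.52), -0.34 after centring and -0.12 without WD5 and CD4. For array brightness it was -0.14 (Spearman -0.13) and 0.20 after centring, and for 7 smooth muscle and pericyte genes -0.05 (Spearman 0.04). With arrays centred on their median the sign turned for luminal genes (0.12), basal genes (0.08), smooth muscle genes (0.15) and array brightness (0.18). The part of these cell types and of array brightness in the differences between the groups was not tested.

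**Figure D5:**
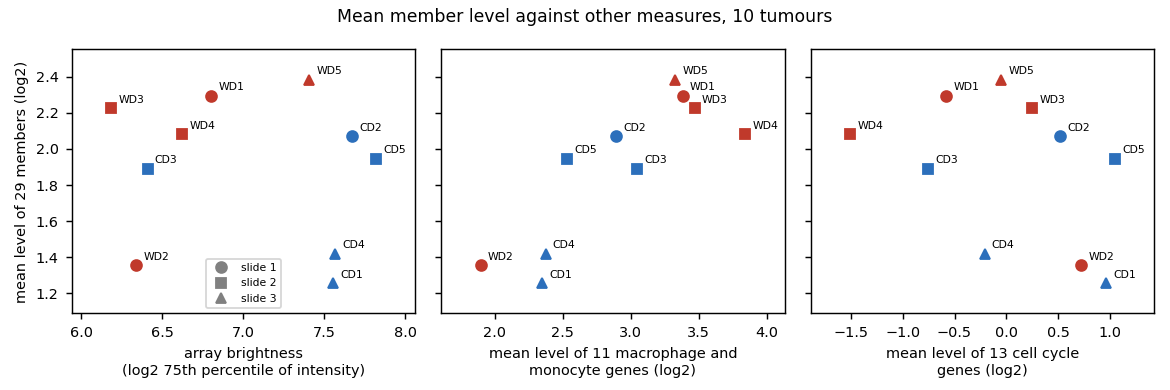
Mean level of the 29 members (log2) in each of the 10 tumours against array brightness, the mean of 11 macrophage and monocyte genes and the mean of 13 cell cycle genes. Red marks WD, blue CD, and the shape the slide. WD2, CD1 and CD4 lie lowest in all 3 panels and have the lowest macrophage means, from 1.90 to 2.37.

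Genes that make, modify, bind and signal through the matrix were taken as lists, and 0 of their members passed the adjusted test. Of 25 further glycoproteins and proteoglycans of the matrix 14 had a higher and 11 a lower mean in WD (median 0.01). Efemp1, a fibulin, differed by 1.21 ± 0.49 (SE) and Ltbp1, which binds latent TGF-beta, by 1.02 ± 0.50, while the laminin chains Lamc1 and Lama1 of the basement membrane differed by -0.60 ± 0.22 and -0.79 ± 0.40 (adjusted p 0.254 to 0.361). The mean of these 25 genes followed that of the members over the 10 tumours (r = 0.89, Spearman 0.85). That r was 0.83 without WD2 and WD5 and 0.71 in the 7 tumours without WD2, CD1 and CD4. Of 19 genes for the modification, folding and processing of collagen 13 had a higher and 6 a lower mean (median 0.09), and 3 of 19 had an unadjusted p under 0.05, each with a lower mean, where 7.71% of all genes did. Of these, the smallest p-values were those of Crtap, a partner in proline hydroxylation of collagen, at -0.68 ± 0.22 (adjusted p 0.207) and P4hb, a subunit of prolyl 4-hydroxylase, at -0.52 ± 0.20 (adjusted p 0.254). Bmp1, which trims the ends of procollagen, differed by 0.47 and P3h3, of the prolyl 3-hydroxylase family, by 0.23.

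Of 6 measured receptors for collagen and fibronectin 3 had a higher and 3 a lower mean (median 0.12). Itga1, the integrin chain that binds collagen, differed by 0.57 ± 0.26 and Cd44, the hyaluronan receptor, by 0.63, while Sdc4, a syndecan, differed by -0.54 ± 0.24 and Itgb1, the common integrin partner chain, by -0.24. Of 9 genes of TGF-beta and PDGF signalling 5 had a higher and 4 a lower mean (median 0.24). Tgfbr2, a TGF-beta receptor, differed by 0.72 ± 0.17 (adjusted p 0.182) and the ligand gene Tgfb2 by 0.83 ± 0.32 (adjusted p 0.258). The signal carrier Smad2 differed by -0.45 and the ligand gene Tgfb1 by -0.33. Over the 10 tumours the means of these lists followed that of the members less closely than the further glycoproteins and proteoglycans did. For collagen modification, folding and processing r was 0.36 (Spearman 0.44), and -0.08 without WD2 and WD5. It was -0.05 (Spearman -0.03) for the receptors and 0.31 (Spearman 0.44) for TGF-beta and PDGF signalling. In the 7 tumours without WD2, CD1 and CD4 the values were 0.65, 0.12 and 0.70.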

How the data were processed

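Rat whole-genome 1-colour arrays (200 ng of RNA each) were read by the authors with Agilent Feature Extraction, version 11.5.1.1 per the file headers. The submitters' processing notes name another version, 15.5. The deposited intensity values are processed signals (background-subtracted, not scaled between arrays per the file headers) and median spot and background signals, with marks of 0 or 1 per spot. The deposited series matrix holds log2 values in the rank order of each array's median spot signals (Spearman 1), with column medians from 6.97 to 6.98. Its scaling is unknown: not given in the sources used here.

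From each log2 processed signal the 75th percentile of the array, over 43379 measuring spots, was subtracted. Outlier spots were left out, spots of a probe were averaged, and probes marked on all their spots on at least 5 of 10 arrays were kept (19730). No measuring spot was saturated. RefSeq names (GRCr8) matched 17502 of 41012 probes by transcript. The kept probe of highest mean stood for a gene, and of the 11 members with 2 kept probes, 8 had both differing the same way. The array annotation is on the rn4 build, so no positions of probes are given.

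The model was fitted in R 4.3.3 with limma 3.58.1 (input read with version 1.17.8 of data.table) and tested on simulated data. Differences are WD minus CD, with adjusted p under 0.05 as the threshold. Members, lists and tests were chosen with earlier results of these data known. Values in every tumour are given for the members listed by name, for 7 kept collagens chosen by name and for the 3 other collagens of smallest p in each direction. Outside the members, the 2 genes of smallest p per list and direction are named, apart from an item not reported here. Alternatives were normexp (offset 50), quantile and median scaling, other filters, mean probes, the deposited matrix, slide, replicate number or brightness in the fit, and leaving out each tumour. Python 3.11.15 and matplotlib 3.10.9 made the plots. The number of arrays limits the precision.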

Additional observations from a re-analysis of the deposited data

Results flagged for a closer look

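In groups of 5 tumours, 58 sets of values (29 members in each group) were searched for a tumour set apart from the other 4, by the gap to its nearest neighbour as a share of the range (Dixon's ratio above 0.71). Chance flags about 1 in 20 independent sets, and 5 were found, all at the low end. These sets are not independent: Dcn, Fn1 and Mfap5 had r of 0.85 to 0.89 with each other. The number found can therefore not be read against that share. WD2 stood apart for 3 stromal genes: its level was 1.09 for Dcn (others 3.49 to 4.37), 2.34 for Fn1 (others 4.22 to 4.64) and 0.63 for Mfap5 (others 3.13 to 4.13). For Col4a4 WD3 was at -3.69 (others -2.28 to -1.74), and that probe was well above background on 3 WD arrays. For Col4a1 CD3 was at 4.67 (others 5.48 to 5.65).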

How the results depend on the processing

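No member passed the adjusted threshold under any of 20 alternatives, 10 of them leaving out 1 tumour (lowest adjusted p 0.115, without WD2). The median difference of the members stayed above 0 under these 20, from 0.10 (arrays centred on their median) to 0.58 (without WD2), and was 0.24 at the lowest with 1 tumour left out. Within single slides it was -0.44 (slide 1) and 1.02 (slide 3). The count of 4 members with a higher mean in WD at an unadjusted p under 0.05 was 1 with median centring or with array brightness as a covariate and 2 with the mean of all probes. Leaving out 1 tumour gave 1 to 9, with 9 without WD2, 7 without CD3, 2 without WD4 or WD5 and 1 without WD1, CD1 or CD4. The count of 4 with a lower mean was 1 with normexp or array brightness and 2 with quantile scaling, the mean of all probes or the replicate block. Leaving out 1 tumour gave 1 to 4, with 2 without WD2, CD2 or CD5 and 1 without WD3, WD4, CD1 or CD4. The share of all genes moved too: from 7.78% higher and 7.71% lower to 2.08% and 0.889% with normexp, 1.96% and 19.7% with median centring, and 2.76% and 2.95% with array brightness. The causes of these changes were not tested.

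Of 29 members 22 kept their sign under those of the other 10 alternatives that held them and 24 under each left-out tumour. The filter on all 10 arrays held 24 members, without Col4a4, Col9a1, Fap, Lum and Col6a2. The sign turned for Col11a2 (-0.0015 with normexp, -0.038 with median centring and -0.072 in the deposited matrix), Col5a1 (-0.23 and -0.054 in the last 2), Bgn (-0.23), Col4a1 (-0.067) and Sparc (-0.22) with median centring, and Lum (-0.023) and Col6a2 (-0.11) in the deposited matrix. With 1 tumour left out the ranges that crossed 0 were -0.16 to 0.32 (Bgn), -0.15 to 0.18 (Col5a1), -0.22 to 0.080 (Col9a2), -0.0012 to 0.58 (Fap) and -0.14 to 0.19 (Sparc). The labels do not say what the replicate numbers stand for. Same-numbered tumours had correlations of their deviations from -0.02 to 0.16 over all genes, which cannot settle whether the numbers pair the tumours. The replicate block left the members' differences as they were, with 6 higher and 2 lower members at an unadjusted p under 0.05. Low signal limits Col4a4, Col6a2, Fap, Lum and Thy1, which were well above background on 4 to 7 of 10 arrays.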

Other observations

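Genes of several other cell types were measured, and 0 of them passed the adjusted test. Among smooth muscle and pericyte genes (4 of 7 with a higher mean in WD), the filament gene Des differed by 0.68 ± 0.26 (SE) and Cspg4 by 0.34 ± 0.34. The contractile gene Cnn1 differed by -1.05 ± 0.60 (SE) and Myh11 by -1.52 ± 1.08. Of the 3 endothelial genes Cdh5, a vessel cadherin, differed by 0.67 and Kdr by 0.30, and of the 2 kept adipocyte genes Cebpa had a 2.14-fold higher mean in WD and Lpl differed by 0.40. The macrophage genes of smallest p were Laptm5 (0.89) and Mrc1 (0.89). Luminal genes had a lower mean in WD for 7 of 9, with -0.99 for the progesterone receptor Pgr and -1.11 for Krt19, against 0.35 for Gata3 and 0.04 for Krt18. Basal genes were split 3 and 3, with -1.20 for Dsc3, -0.17 for Krt5, 0.39 for Dsg3 and 0.09 for Krt14. In the Schwann cell list Ngfr differed by -0.57 and Sox10 by -0.26, and of the skeletal muscle list Myh2 differed by 0.93 besides Des. In the cell cycle list Mcm7 differed by -0.78 and Aurka by -1.07, and Rrm2, by 0.17, was the gene with a higher mean in WD.

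The 4 kept collagens known from cartilage did not all vary together. Over the 10 tumours Col2a1 had r = 0.76 with Col9a2 and 0.75 with Col9a1, and r = 0.77 with the anchoring fibril gene Col7a1. The Spearman values were 0.67, 0.35 and 0.68. Col9a1 and Col9a2 had r = 0.58 (Spearman 0.28). Col11a2 had r = -0.58 with Col2a1 (Spearman -0.75), -0.39 with Col9a2 and -0.13 with Col9a1. These pairs were picked after their values were seen, and the second Col2a1 probe did not follow the first.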
